A study of Mus musculus with 4 samples.

Results

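The dural mast cell genes are 10 genes whose products mark mast cells: the granule proteases *Cma1*, *Mcpt4*, *Tpsb2*, *Tpsab1*, and *Cpa3*, the receptors *Kit*, *Fcer1a*, *Ms4a2*, and *Mrgprb1*, and the histamine-forming enzyme *Hdc*. They were chosen by symbol, and all 10 were found among the 55401 genes of the deposited tables. All 10 also passed the filter on low counts, which kept 19806 genes. The cells were live CD45+ leukocytes sorted from the dura mater of wild-type (WT) male C57BL/6J mice. The mice had received 2 μl of an AAV9 vector into the cisterna magna at 4 wk of age. AAV-mVEGF-C encodes full-length mouse VEGF-C, the growth factor of lymphatic vessels, and AAV-CTRL encodes a fusion of Ig with ectodomains 4–7 of VEGFR-3, a soluble protein that does not bind VEGF-C. Both groups therefore carried the same serotype of vector, and none of the libraries came from mice without a vector. Each library pooled the cells of 10 to 12 mice, and each group had 2 libraries, labelled as separate experiments. A difference in a bulk library of pooled cells cannot tell fewer mast cells from less RNA in each mast cell.

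Mast cells arise from bone marrow progenitors, mature in tissues under the control of stem cell factor acting on KIT, and store histamine, proteoglycan-bound proteases, and cytokines in their granules. In the dura they lie along blood vessels and nerve fibers, and their release of histamine and proteases has been studied in headache and stroke. IgE bound to the high-affinity receptor FcεRI triggers this release. The granules of connective tissue mast cells in the mouse hold chymases, tryptases, and a carboxypeptidase, whereas the mast cells of mucosa hold mainly the chymases encoded by *Mcpt1* and *Mcpt2*.

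The 4 libraries held 32520709 to 46409700 reads assigned to genes. AAV-CTRL 1 stood apart from the others: it had the most reads, the fewest detected genes (20993, against 29230 to 37535), and the highest summed level of neutrophil and of progenitor markers. The fold changes without it are given after the genes. Counts scaled to 1e+06 reads (CPM) are normalized here by edgeR's TMM factors, and TPM are the authors' values per gene length.

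The 10 mast cell genes together received 118457 and 62864 reads in AAV-CTRL 1 and 2, and 65693 and 55582 reads in AAV-mVEGF-C 1 and 2. These reads were 0.255% (95% Wilson interval 0.254 to 0.257%) and 0.189% (0.187 to 0.19%) of all assigned reads in the AAV-CTRL libraries. In the AAV-mVEGF-C libraries they were 0.173% (0.171 to 0.174%) and 0.171% (0.169 to 0.172%). The intervals cover counting error only, and PCR reads are not independent molecules. The share was lower in both AAV-mVEGF-C libraries than in both controls, with means of 0.172% ± 0.00122 against 0.222% ± 0.0471 (SD, n = 2 each), and the SD of the controls was nearly as large as the difference of -0.0501 percentage points. Without AAV-CTRL 1 this difference was -0.0168 percentage points.

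The levels of the 10 genes per length, in TPM, spanned a wide range within every library. *Cma1* was highest on average, followed by *Mcpt4*, *Tpsb2*, and *Cpa3*, then *Hdc*, *Kit*, *Tpsab1*, *Fcer1a*, *Ms4a2*, and *Mrgprb1*. *Cpa3* (122.2 to 229 TPM over the 4 libraries) lay above *Hdc* (90.0 to 121.5 TPM), *Hdc* above *Kit* (23.0 to 31.2 TPM), and *Kit* above *Tpsab1* (9.97 to 15.1 TPM), without overlap of these ranges. The ranges of the other neighbors overlapped: *Cma1* and *Mcpt4* did not differ beyond their spread, and *Cma1* was the higher in 3 of 4 libraries. Within libraries, *Mcpt4* exceeded *Tpsb2*, *Tpsb2* exceeded *Cpa3*, and *Fcer1a* exceeded *Ms4a2* in 4 of 4, *Ms4a2* exceeded *Mrgprb1* in 3 of 4, and *Tpsab1* exceeded *Fcer1a* in 2 of 4. *Tpsab1*, *Fcer1a*, *Ms4a2*, and *Mrgprb1* were low, with means of 12.85, 9.44, 6.77, and 6.18 TPM. The protease genes *Tpsb2*, *Cma1*, and *Mcpt4*, which other leukocytes largely lack, were abundant in these sorted cells. So was *Cpa3*, which basophils also express. In contrast, the mucosal chymase genes were far lower: *Mcpt1* had 0, 0, 1, and 1 reads and was not tested, and *Mcpt2* had 3.26, 1.14, 0.059, and 0.747 TPM.

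**Figure D1:**
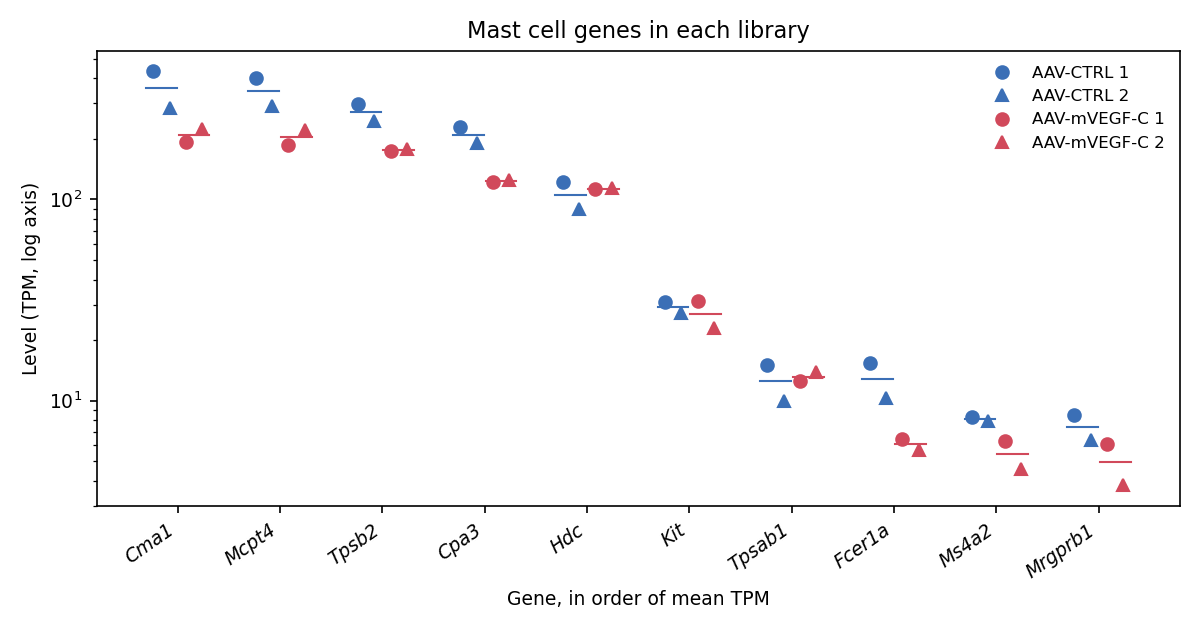
Level of each mast cell gene in TPM (log axis) in the 2 AAV-CTRL (blue) and 2 AAV-mVEGF-C (red) libraries, with horizontal lines at the group means. Both AAV-mVEGF-C points lie below both controls for 7 of the 10 genes (28.5% of all tested genes do so by TPM). The groups overlap for *Hdc*, *Kit*, and *Tpsab1*.

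In both AAV-mVEGF-C libraries, 6 of the 10 genes had a lower CPM than in both controls, namely *Cpa3*, *Mcpt4*, *Cma1*, *Tpsb2*, *Fcer1a*, and *Ms4a2*. Among all tested genes, 15.2% were placed this way. The median log2 fold change of the 10 genes (AAV-mVEGF-C over AAV-CTRL) was -0.585, against 0.0034 over all tested genes, and 8 of 10 fitted values were below 0. No difference passed the test: 0 of the 10 genes were called by edgeR's quasi-likelihood test at an adjusted p of 0.05, where 0% of all genes were called, and 0 did so in DESeq2, where 0.389% were called. At an unadjusted p under 0.05, 5 of the 10 genes were lower in edgeR's test, against 1.18% of all genes, and the same was true of 5 in DESeq2, against 1.56% of all genes. The adjusted p from edgeR was 0.999 for each of the 10 genes. By TPM, 7 of 10 genes lay below both controls, but so did 28.5% of all genes. The TPM scale itself was shifted: the median difference in log2(TPM + 1) over 14124 genes was -0.125, against -0.00912 for log2(CPM + 1). Relative to that median, the 10 genes had a median difference of -0.444 in log2(TPM + 1).

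The sequences before the starts of *Cpa3*, *Mcpt4*, *Cma1*, and *Fcer1a* are shown, those of the carboxypeptidase, both chymases, and the IgE-binding chain, which all lay below both controls. *Ms4a2* also lay below both controls, and its window, which held 3 matches, is not printed. GATA factors are known to bind the promoters of mast cell genes, and 4 motifs were searched on both strands, AGATAA with its variant AGATAG and TGATAA with its variant TGATAG, within the 250 bases before the RefSeq start (GRCm38.p6). RefSeq promoters were matched for 8 of the 10 genes, and not for *Tpsb2* and *Tpsab1*. Of these 8, 7 held at least 1 match, and *Kit* held none, while 26.5% of 32851 RefSeq promoter windows held a match. An E-box of the type that MITF binds (CACGTG or its variant CATGTG, both strands) was found in 1 of the 8, that of *Fcer1a*, and in 17.6% of all windows. That E-box is printed in lower case. In the sequences below, which are 5′ to 3′ on the minus strand, the strand of each gene, capitals mark the GATA-type match. The match lay 46 bases before the start in *Cpa3*, 103 in *Mcpt4*, 79 in *Cma1*, and 92 in *Fcer1a*, and in *Cma1* and *Fcer1a* it is on the opposite strand. The window of *Mcpt4* is 247 bases long because annotated exon bases were left out. A match describes these letters and not a bound site.
Cpa3, chr3:20242182-20242431: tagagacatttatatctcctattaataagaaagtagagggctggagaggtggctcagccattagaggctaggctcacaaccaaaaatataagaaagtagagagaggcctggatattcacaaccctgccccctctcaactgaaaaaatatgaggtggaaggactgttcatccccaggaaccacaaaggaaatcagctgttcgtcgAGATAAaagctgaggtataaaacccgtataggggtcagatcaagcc
Mcpt4, chr14:56062314-56062560: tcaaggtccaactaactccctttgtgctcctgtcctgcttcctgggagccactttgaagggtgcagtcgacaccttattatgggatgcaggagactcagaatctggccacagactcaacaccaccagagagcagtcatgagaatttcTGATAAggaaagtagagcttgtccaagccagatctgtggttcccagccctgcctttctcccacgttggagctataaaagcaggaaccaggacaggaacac
Cma1, chr14:55944676-55944925: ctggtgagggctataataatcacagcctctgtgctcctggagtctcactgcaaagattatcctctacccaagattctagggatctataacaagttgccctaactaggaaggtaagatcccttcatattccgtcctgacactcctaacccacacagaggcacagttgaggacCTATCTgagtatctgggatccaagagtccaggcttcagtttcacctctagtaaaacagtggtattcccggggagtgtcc
Fcer1a, chr1:173227230-173227479: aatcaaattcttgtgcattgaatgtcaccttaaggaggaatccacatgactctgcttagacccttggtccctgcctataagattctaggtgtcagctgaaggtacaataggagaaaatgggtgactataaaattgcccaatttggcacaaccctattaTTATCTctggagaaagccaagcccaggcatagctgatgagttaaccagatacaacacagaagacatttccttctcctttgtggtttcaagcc

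The chymases, tryptase, and carboxypeptidase that fill the granules of connective tissue mast cells all lay below both controls, with log2 fold changes of -0.63 for *Cpa3* to -0.47 for *Tpsb2*, and the sequences before the starts of 3 of them are those printed above. *Cma1*, which encodes mast cell chymase mMCP-5 (chr14:55941451-55944675, minus strand, GRCm38), had 556 and 347 CPM in AAV-CTRL 1 and 2, and 274 and 312 CPM in AAV-mVEGF-C 1 and 2. The AAV-mVEGF-C values lay below both controls, but the gap between the controls, 0.683 on the log2 scale, was larger than the log2 fold change of -0.62 ± 0.25 (SE; unadjusted p = 0.0479, edgeR). *Mcpt4*, which encodes the chymase mMCP-4 (chr14:56059629-56062313, minus strand), had 531 and 360.1 CPM in AAV-CTRL, and 268 and 314 CPM in AAV-mVEGF-C. The groups did not overlap, and the fitted log2 fold change was -0.62 ± 0.23 (unadjusted p = 0.0365, edgeR). *Cpa3*, the carboxypeptidase stored in complex with these chymases (chr3:20215620-20242181, minus strand), had 373 and 282 CPM in AAV-CTRL, and 214 and 210.2 CPM in AAV-mVEGF-C. The AAV-mVEGF-C libraries were close to each other and lower than both controls, and the log2 fold change was -0.63 ± 0.19 (unadjusted p = 0.016, edgeR), a level 0.648 times that of the controls.

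*Cma1* and *Mcpt4* were at similar levels in every library: the ratio of their TPM was 1.07 and 0.979 in AAV-CTRL, and 1.04 and 1.01 in AAV-mVEGF-C. Both are chymase genes of the same cluster on chromosome 14. The 100-base stretches of their transcripts were not shared between them, and 1 of 1009 in *Mcpt4* was shared with *Cma2*.

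The tryptase genes, neighbors on chromosome 17, differed in pattern. *Tpsb2*, which encodes tryptase mMCP-6 (chr17:25366305-25369098, plus strand), had 411 and 320.3 CPM in AAV-CTRL, and 259 and 268 CPM in AAV-mVEGF-C. The groups did not overlap, and the fitted log2 fold change was -0.47 ± 0.18 (unadjusted p = 0.0409, edgeR). *Tpsab1*, which encodes tryptase mMCP-7 (chr17:25343245-25345562, minus strand), had 37.1 and 21.4 CPM in AAV-CTRL, and 30.6 and 33.2 CPM in AAV-mVEGF-C. Here the AAV-mVEGF-C values lay between the controls, with a log2 fold change of 0.12 ± 0.28 (unadjusted p = 0.679, edgeR). *Tpsab1* is known to be disrupted at a splice site in C57BL/6 mice, which produce no mMCP-7 protein, and its RNA was still detected at 9.97 to 15.1 TPM. The transcripts of the tryptase genes shared 0 of their 100-base stretches with any other gene. Per length, the level of *Tpsb2* was 19.8 and 24.6 times that of *Tpsab1* in AAV-CTRL, and 13.8 and 12.9 times in AAV-mVEGF-C.

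**Figure D2:**
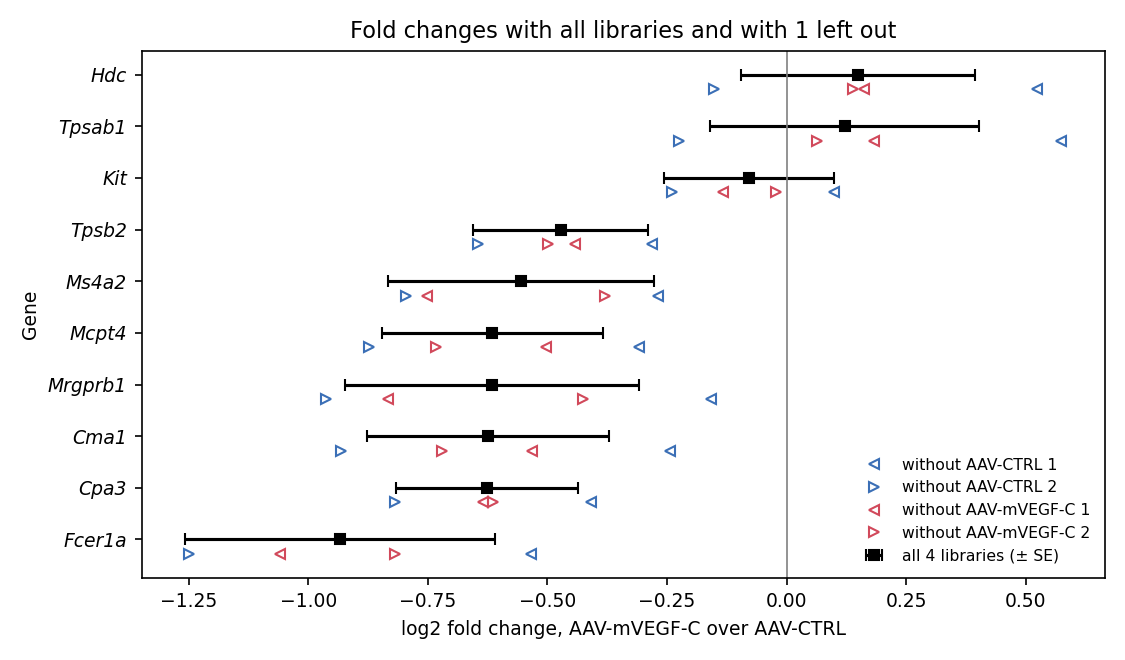
log2 fold change of each mast cell gene (AAV-mVEGF-C over AAV-CTRL) from edgeR with all 4 libraries (black squares, ± SE) and with 1 library left out (triangles). Without AAV-CTRL 1, *Cma1* moves to -0.24 and *Mrgprb1* to -0.16. Across the fits with 1 library left out, the values of *Kit*, *Tpsab1*, and *Hdc* lie on either side of 0.

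Among the receptor genes, *Fcer1a* had the largest difference and *Kit* the smallest. *Fcer1a* encodes the α chain of FcεRI, which binds IgE (chr1:173221284-173227214, minus strand), and had 16.1 and 9.83 CPM in AAV-CTRL, and 7.35 and 6.21 CPM in AAV-mVEGF-C. Its groups did not overlap, and its log2 fold change of -0.93 ± 0.32 (unadjusted p = 0.0272, edgeR) was the most negative of the 10, a level 0.523 times that of the controls. *Ms4a2* encodes the β chain, which amplifies the signal (chr19:11615523-11623719, minus strand), and had 20.0 and 13.9 CPM in AAV-CTRL, and 13.03 and 10.03 CPM in AAV-mVEGF-C. The highest AAV-mVEGF-C value lay just below the lowest control, with a log2 fold change of -0.56 ± 0.28 (unadjusted p = 0.0912, edgeR). Of the 2292 100-base stretches of *Ms4a2*, 13 were shared with *Ms4a4b*. In contrast, *Fcer1g*, the γ chain that many leukocytes use for other Fc receptors, had 150.4 and 129.5 CPM in AAV-CTRL, and 123 and 144 CPM in AAV-mVEGF-C. Per length, *Fcer1g* was 14.4 and 19.2 times as abundant as *Fcer1a* in AAV-CTRL, and 24.7 and 33.6 times in AAV-mVEGF-C.

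*Kit*, the receptor for stem cell factor (chr5:75574916-75656722, plus strand), had 205 and 162 CPM in AAV-CTRL, and 181 and 167 CPM in AAV-mVEGF-C. The groups overlapped, and the log2 fold change was -0.08 ± 0.18 (unadjusted p = 0.674, edgeR). *Kit* is also expressed by hematopoietic progenitors, type 2 innate lymphoid cells, and melanocytes. *Mrgprb1* belongs to the Mas-related G protein–coupled receptors (chr7:48444113-48456342, minus strand), and had 43.5 and 24.9 CPM in AAV-CTRL, and 25.5 and 19.2 CPM in AAV-mVEGF-C. AAV-CTRL 2 lay between the AAV-mVEGF-C libraries, and the log2 fold change was -0.62 ± 0.31 (unadjusted p = 0.0914, edgeR). *Mrgprb2*, the mast cell receptor for basic secretagogues, was lower per length than *Mrgprb1* in every library, at 1.87 and 2.51 TPM in AAV-CTRL and 1.71 and 1.41 TPM in AAV-mVEGF-C.

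*Hdc*, histidine decarboxylase (chr2:126593667-126619299, minus strand), had 456 and 287 CPM in AAV-CTRL, and 409.6 and 414 CPM in AAV-mVEGF-C. The AAV-mVEGF-C values lay between the controls, with a log2 fold change of 0.15 ± 0.24 (unadjusted p = 0.563, edgeR). *Hdc* is also expressed by basophils, neutrophils, and their precursors in the marrow. The summed CPM of 8 neutrophil markers was highest in AAV-CTRL 1 and lowest in AAV-CTRL 2, as was that of *Hdc*: it came to 20300 and 9149 in AAV-CTRL, and 11980 and 13430 in AAV-mVEGF-C. *Kit* and *Tpsab1* also had their highest CPM in AAV-CTRL 1 and their lowest in AAV-CTRL 2. The part of neutrophils in the level of *Hdc* was not tested.

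Ratios within a library do not depend on the scaling of libraries, and were chosen after the values had been seen, so they are given without a test. The TPM of *Cpa3* was 1.88 and 2.12 times that of *Hdc* in AAV-CTRL, and 1.08 and 1.10 times in AAV-mVEGF-C. The TPM of *Cpa3* was 7.39 and 7.03 times that of *Kit* in AAV-CTRL, and 3.92 and 5.44 times in AAV-mVEGF-C. The AAV-CTRL libraries, which differed widely in the level of *Hdc*, were thus close in these ratios, and neither ratio overlapped between groups. Between genes of the granule proteases, the TPM of *Cma1* was 1.89 and 1.5 times that of *Cpa3* in AAV-CTRL, and 1.59 and 1.79 times in AAV-mVEGF-C. That ratio overlapped between the groups. *Tpsb2* was 1.30 and 1.28 times *Cpa3* in AAV-CTRL, and 1.42 and 1.43 times in AAV-mVEGF-C, without overlap. The ratios of *Tpsb2* to *Tpsab1* and of *Fcer1g* to *Fcer1a*, given above, did not overlap either. Nor did that of *Ms4a2* to *Fcer1a*, at 0.54 and 0.768 in AAV-CTRL, and 0.973 and 0.811 in AAV-mVEGF-C. The ratios of *Cma1* to *Mcpt4* and of *Mrgprb1* to *Mrgprb2* overlapped. How often ratios of other gene pairs overlap was not computed.

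**Figure D3:**
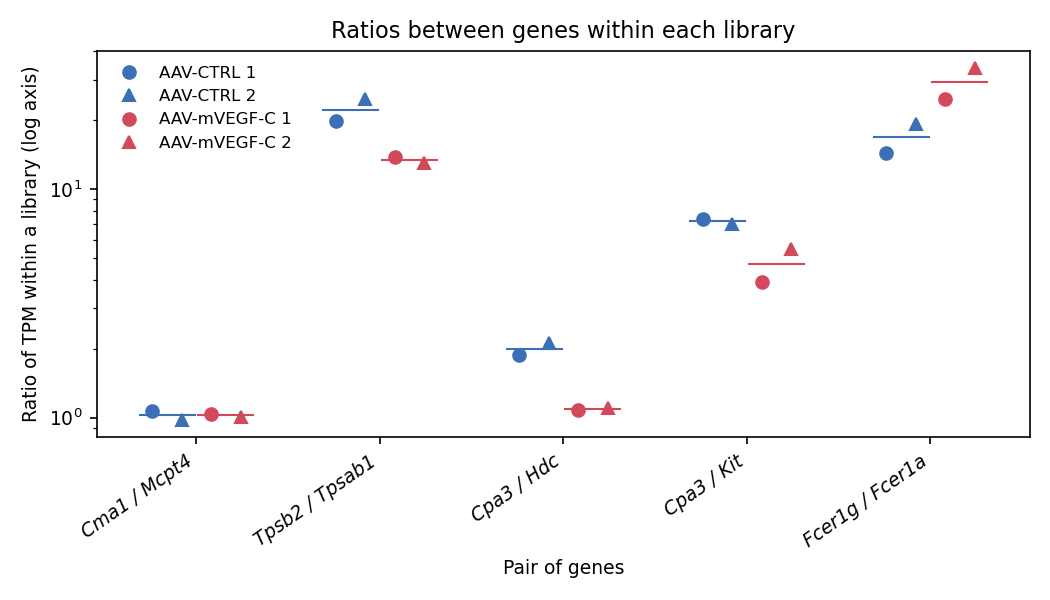
Ratios of TPM between pairs of genes within each of the 4 libraries (log axis), with horizontal lines at the group means. *Cma1* over *Mcpt4* is near 1 in every library, whereas *Cpa3* over *Hdc* averages 2.00 in AAV-CTRL and 1.09 in AAV-mVEGF-C.

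The size of the differences depended on AAV-CTRL 1, in which all 10 genes had their highest CPM of the 4 libraries. Without AAV-CTRL 2, the control group was AAV-CTRL 1 alone, and 6 of 10 genes were lower at an adjusted p under 0.05, against 2.92% of all genes. The adjusted p from edgeR was then 0.0211 for *Cpa3*, 0.0252 for *Mcpt4*, 0.0195 for *Cma1*, 0.0431 for *Tpsb2*, 0.0278 for *Fcer1a*, and 0.0266 for *Mrgprb1*. Without AAV-CTRL 1, 0 of 10 genes were lower at an adjusted p under 0.05, against 0.591% of all genes, none of the 10 was called in the other direction, and the median log2 fold change moved from -0.585 to -0.256. The log2 fold change was then -0.41 for *Cpa3*, -0.31 for *Mcpt4*, -0.24 for *Cma1*, -0.28 for *Tpsb2*, -0.53 for *Fcer1a*, -0.27 for *Ms4a2*, and -0.16 for *Mrgprb1*. *Kit*, *Tpsab1*, and *Hdc* had 0.10, 0.57, and 0.52. The first 7 values were all nearer to 0 than with all 4 libraries. In a fit that leaves a group with 1 library, that library is assumed to vary like the others.

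The other mast cell genes, those of further granule contents, receptors, and lipid mediators, were also mostly lower. Of 22 genes, 20 were tested, 19 had a log2 fold change below 0 and 1 above, with a median of -0.295, and 8 had a lower CPM than in both controls, as did 15.2% of all tested genes. None was called by edgeR, at either the adjusted or the unadjusted p. *Srgn*, the core protein of the granule proteoglycan serglycin, was the most abundant, with 647 and 349 CPM in AAV-CTRL, and 452 and 511 CPM in AAV-mVEGF-C. *Alox5ap*, the activating protein of 5-lipoxygenase, had 264 and 136 CPM in AAV-CTRL, and 188 and 194 CPM in AAV-mVEGF-C. Both are expressed by many leukocytes, and in both the AAV-mVEGF-C values lay between the controls. The largest differences were those of *Mcpt2*, at -2.34 ± 1.17 on the log2 scale, and of *Ctsg*, at -0.85 ± 0.70. *Ctsg*, cathepsin G, is made by neutrophil precursors as well as mast cells, and had 164 and 28.8 CPM in AAV-CTRL, and 58.3 and 48.3 CPM in AAV-mVEGF-C.

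The genes of FcεRI signaling divided evenly. Of 17 tested, 8 were higher and 9 lower, with a median of -0.03. *Fcer1g* and the phosphatase gene *Ptpn6* were the most abundant, and *Ptpn6* had a log2 fold change of -0.21 ± 0.16. The largest differences were higher values, 0.36 ± 0.19 for the calcium channel gene *Orai1* and 0.29 ± 0.17 for the adaptor gene *Lat*. Most of these genes act in T cells, B cells, or myeloid cells as well.

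Of 10 transcription factors of the mast cell lineage, 6 were higher and 4 lower, with a median of 0.01. *Ikzf1* and *Lmo4*, which lymphoid and myeloid cells also express, were the most abundant and had log2 fold changes of 0.02 ± 0.15 and 0.01 ± 0.16. The factor gene *Tal1* had 10.8 and 9.94 CPM in AAV-CTRL, and 4.15 and 7.13 CPM in AAV-mVEGF-C. These groups did not overlap, and the log2 fold change was -0.88 ± 0.35 (unadjusted p = 0.0432, edgeR), which did not pass the adjustment. *Gata1* had -0.33 ± 0.55, with 1.31 to 2.97 CPM over the 4 libraries. The rest of the 4 lower genes were *Gata2*, at -0.26 ± 0.23, and *Mitf*, at -0.26 ± 0.17.

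Of 13 growth factors, alarmins, and cytokines that act on or come from mast cells, 11 were tested, with 6 higher and 5 lower and a median of 0.01. *Il9* had 0 reads in every library, and *Il3* had 0, 3, 2, and 0. *Tgfb1* and *Csf2* were the most abundant, with log2 fold changes of 0.01 ± 0.20 and -0.06 ± 0.23. *Il4* and *Il6* had the largest differences, 0.65 ± 0.66 and 0.50 ± 0.27. None of these 3 gene lists held a gene called at the adjusted p by edgeR.

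**Figure D4:**
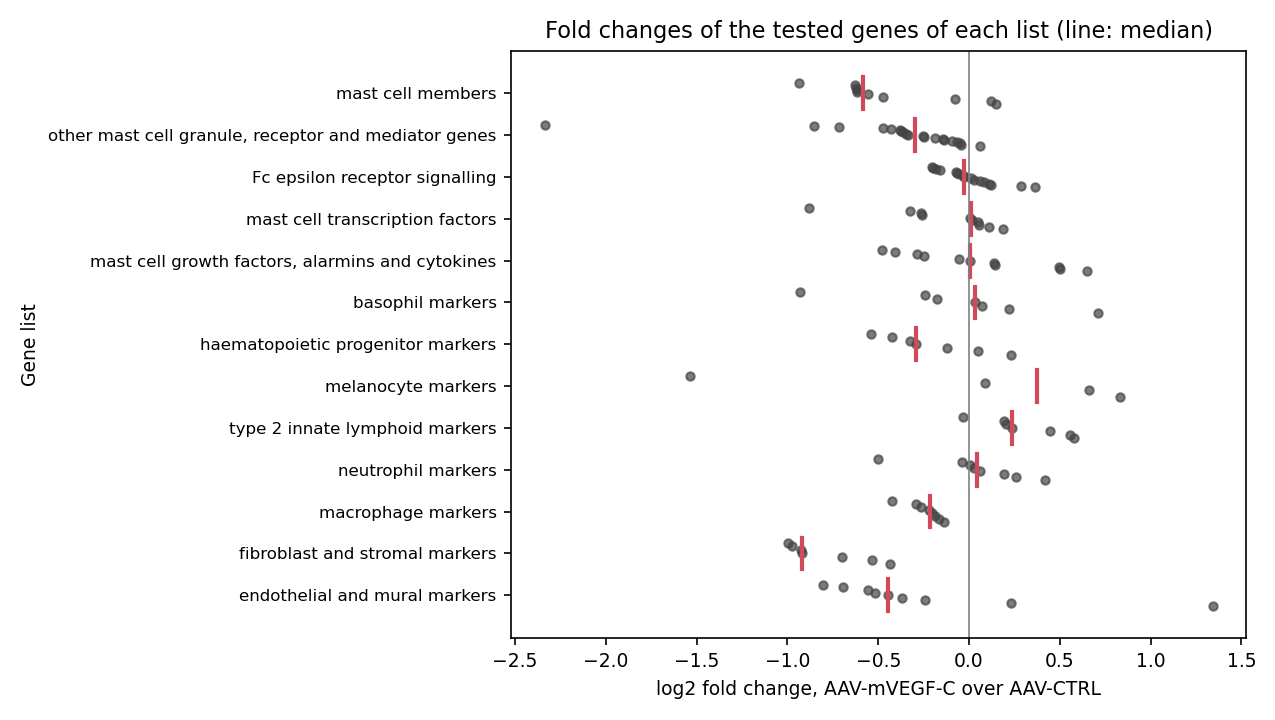
log2 fold change (AAV-mVEGF-C over AAV-CTRL) of each tested gene, by gene list, with the median of each list as a red line. The 10 mast cell genes have a median of -0.585, further mast cell genes -0.295, and fibroblast and stromal genes -0.918.

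The markers of cells that share genes with mast cells were set beside these values. Basophils also express *Fcer1a*, *Ms4a2*, *Cpa3*, and *Hdc*. Their defining proteases were detected at low levels. *Mcpt8* had 0.537 and 1.37 CPM in AAV-CTRL, and 0.486 and 1.20 CPM in AAV-mVEGF-C. *Prss34* had 1.68 and 3.81 CPM in AAV-CTRL, and 1.89 and 2.74 CPM in AAV-mVEGF-C. The part of basophils in the levels of *Fcer1a*, *Ms4a2*, *Cpa3*, and *Hdc* was not tested. Of 7 basophil markers, 4 were higher and 3 lower, with a median of 0.04. *Cd200r3*, an activating receptor of both mast cells and basophils, had 14.3 and 10.0 CPM in AAV-CTRL, and 6.35 and 6.44 CPM in AAV-mVEGF-C. The fitted log2 fold change was -0.93 ± 0.29 (unadjusted p = 0.0174, edgeR), and *Ccr3* had 0.71 ± 0.36. *Itgam*, the most abundant gene of the list, is found on many myeloid cells and had 0.04 ± 0.22.

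Of 7 progenitor markers, 5 were lower, with a median of -0.29. Their summed CPM was 3027 and 721 in AAV-CTRL, and 1644 and 1271 in AAV-mVEGF-C, so both AAV-mVEGF-C libraries lay between the controls. *Mpo* and *Elane*, granule genes of early neutrophil precursors, made up most of that sum, and *Ms4a3* had the largest difference, -0.54 ± 0.61. The 7 melanocyte markers summed to 1.29 to 2.38 CPM over the 4 libraries, with *Tyr*, *Tyrp1*, and *Slc45a2* at 9 reads or fewer in each, and *Dct* and *Mlana* at 1.23 CPM or less. Of 7 markers of type 2 innate lymphoid cells, 6 were higher, with a median of 0.24. By CPM, 3 of these 7 lay above both controls (3322 of 19806 tested genes did). In edgeR, 1 of the 7 was higher at an unadjusted p under 0.05 (289 of 19806 genes were). Their summed CPM was 570.4 and 665 in AAV-CTRL, and 718 and 745 in AAV-mVEGF-C. *Thy1* and *Areg* were their most abundant genes, and *Klrg1* and *Il17rb* had the largest differences, 0.58 ± 0.61 and 0.56 ± 0.24. The part of these cells in the level of *Kit* was not tested.

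Of 8 neutrophil markers, 6 were higher, with a median of 0.04. *S100a9* and *S100a8* were the most abundant, with log2 fold changes of 0.01 ± 0.36 and 0.03 ± 0.34, and *Ngp* and *Retnlg* had the largest differences, -0.50 ± 0.39 and 0.42 ± 0.24. All 8 macrophage markers had values below 0, with a median of -0.21, and their summed CPM was 1525 and 1983 in AAV-CTRL, and 1258 and 1734 in AAV-mVEGF-C. *C1qb* and *C1qa* were the most abundant, and *Pf4* and *Mrc1* had the largest differences, -0.42 ± 0.37 and -0.29 ± 0.26. *Ptprc*, which encodes CD45, had 1151 and 946 CPM in AAV-CTRL, and 1087 and 1039 CPM in AAV-mVEGF-C, and its groups overlapped.

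Markers of cells that the CD45+ gate should remove had mostly lower values, and no gene of these or the other marker lists was called by edgeR at the adjusted p. All 7 fibroblast and stromal markers had a log2 fold change below 0, with a median of -0.918, 5 of 7 lay below both controls (15.2% of all tested genes did), and 4 had an unadjusted p under 0.05 (1.18% of all genes in that direction). Their summed CPM was 699 and 1164 in AAV-CTRL, and 404 and 623 in AAV-mVEGF-C. *Pdgfra* and *Col1a1* had the largest differences, -0.996 ± 0.28 and -0.97 ± 0.29, and *Mgp* and *Col1a2* were the most abundant. AAV-CTRL 2 was the highest library for these genes, whereas AAV-CTRL 1 was the highest for the mast cell genes. Of 9 endothelial and mural markers, 7 were lower, with a median of -0.44, and their summed CPM was 97.8 and 126 in AAV-CTRL, and 80.2 and 91.9 in AAV-mVEGF-C. *Pecam1* and *Acta2* were the most abundant of these, and *Prox1* and *Kdr* had the largest differences, 1.34 ± 0.95 and -0.80 ± 0.30, while *Cldn5* stayed under 1 CPM. The part of stromal cells in the difference of the mast cell genes was not tested.

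The genes most like the average TPM profile of the 10 mast cell genes over the 4 libraries were *Vapa*, *Tnfsfm13*, *Psmd6*, *Zfp146*, and *Fbxw4*, out of 9244 genes compared. Their root mean square distances from that profile, in log2(TPM + 1), were 0.00817 to 0.026, whereas those of the mast cell genes themselves were 0.0888 for *Tpsb2* to 0.302 for *Tpsab1*. On the CPM scale these 5 genes differed less between the groups, with fitted log2 fold changes of -0.14 ± 0.15 for *Vapa* to -0.32 ± 0.24 for *Zfp146*. With 4 libraries, many genes can share such a profile.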

How the data were processed

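RNA of CD45+ cells sorted from collagenase-digested dura was made into libraries by a stranded SMARTer protocol for picogram amounts of total RNA. The authors deposited estimated counts per gene without normalization, of which 8.18% had decimals and were rounded here, and the authors also deposited TPM. The submitters' processing notes name FastQC, Trimmomatic, DRAGEN, Picard, and mm10, and the annotation is not given in the sources used here. GENCODE M21 gave the coordinates. The table numbers the AAV-CTRL columns differently from the experiment numbers of the labels, which name the libraries here.

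Differences were tested with edgeR 4.0.16 (quasi-likelihood test, TMM, filterByExpr, 4 libraries, no block) in R 4.3.3, with Benjamini-Hochberg adjustment over 19806 genes and a threshold of 0.05. An SE is the log2 fold change divided by the square root of F. The common dispersion was 0.173. DESeq2 1.42.0, which the study used, limma 3.58.1 (voom, and TPM with pseudocounts of 1 and 0.1), other scalings and filters, a replicate block, and leaving out each library were alternatives. Gene lists were written by hand, and the members and lists were chosen with earlier results of these data known. Besides the 10 genes, each list gave its 2 most abundant genes by TPM and its 2 largest differences, and other genes named as examples, such as *Mcpt8*, *Prss34*, *Cldn5*, *Tyr*, or *Mrgprb2*, were chosen after their values were seen. The 5 similar genes had a mean of at least 10 CPM and lay outside all lists. In data simulated for this comparison, edgeR kept 18598 of 19806 genes and recovered 86 of 100 genes changed 4-fold, with 15 false calls. Smaller changes were not simulated. Apart from the changed genes, the simulated libraries had the same mean composition, so the departure of AAV-CTRL 1 was not part of them. Same-numbered libraries did not deviate together (correlation of deviations across genes, -0.134 on edgeR's log2 CPM).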

Additional observations from a re-analysis of the deposited data

How the results depend on the processing

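The number of the 10 genes called, 0 with all 4 libraries, stayed 0 under all 10 alternatives other than leaving out a library, and the median log2 fold change ranged from -0.611 to -0.559 there, with the direction of each of the 10 genes kept. In the fit with a replicate block by experiment number, the median was -0.56, 0 of the 10 genes and 11 of all genes were called. Same-numbered libraries carry the same experiment number in the labels, and whether they were handled together is not settled. Crossing the numbers, an alternative chosen after seeing the data, called 0 of the 10 genes and 54 of all genes. Leaving out 1 library at a time gave 0 to 6 of the 10 genes called, the 6 without AAV-CTRL 2 (1798 of all genes then), and medians of -0.808 (without AAV-CTRL 2) to -0.256 (without AAV-CTRL 1). *Kit* turned to 0.0992 without AAV-CTRL 1 (range -0.24 to 0.0992), *Tpsab1* to -0.224 without AAV-CTRL 2 (range -0.224 to 0.574), and *Hdc* to -0.151 without AAV-CTRL 2 (range -0.151 to 0.523). The cause was not tested. The difference in the share of reads ranged from -0.0835 (without AAV-CTRL 2) to -0.0168 percentage points (without AAV-CTRL 1), and by share of TPM it was -0.0482. The 6 genes below both controls by CPM were 7 by TPM, an alternative also chosen after seeing the data. Of all tested genes, 15.2% lay below both controls by CPM and 28.5% by TPM. *Mcpt1*, *Il3*, and *Il9* had 0 to 3 reads per library and were too low to be tested at this depth.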
